A study of Mus musculus with 18 samples.

Results

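The genes described here are 4 simple epithelial keratins (Krt7, Krt8, Krt18 and Krt19) and 4 genes of epithelial adhesion (Epcam, Cdh1, Cldn4 and Cldn7), together 8 of the 22657 genes in an RNA-seq table of cultured mouse testes. The keratins were chosen by their values, which were high only in the B0 samples, so their levels are given as a description with no test. The adhesion genes were added by function, and the rule as stated did not use their values. The table held 18 samples in 6 groups of 3. ICR mice were injected once with busulfan, an alkylating anti-cancer drug toxic to germ cells, at 40 μg per g body weight when 3 weeks old, and their testes were collected 2 weeks later and cultured for 48 h without AOS (B0), with 10 μg/mL AOS (BA10) or with 50 μg/mL AOS (BA50). AOS are alginate oligosaccharides, short sugar chains from brown seaweed. Testes of ICR mice given no busulfan, collected at the same time, were cultured with 0, 10 or 50 μg/mL AOS and are called A0, A10 and A50. All groups shared the DMEM/F12 medium with 10% FBS, and the study's methods give 6 testes for each treatment and 3 repeats of the experiment. Whether the replicate numbers mark these repeats and whether a sample was 1 testis or a pool are not given in the sources used here, so the p-values measure the spread between these samples, which may be in part technical.

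Keratins are the intermediate filament proteins of epithelial cells. A filament needs a type II keratin (Krt7 and Krt8 belong here) paired with a type I keratin (Krt18 and Krt19), and Krt8 with Krt18 is the pair typical of simple, single-layered epithelia. Cdh1 (E-cadherin) forms adherens junctions, Epcam is an adhesion protein of the epithelial surface, and Cldn4 and Cldn7 are claudins of the tight junction. In the postnatal testis, Sertoli cells mainly carry vimentin filaments, while the rete testis, the efferent ducts and the epididymis are lined by epithelium that carries simple keratins. Epcam and Cdh1 are also found in spermatogonia.

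Values were FPKM, which are scaled by gene length and sequencing depth, so levels may be compared between genes. The read depth behind them is unknown. All 8 genes passed the filter used for testing (a value of 1 FPKM or more in 3 or more samples), as did 15790 genes in all. Krt7 passed through B0 only. Summed Sertoli cell and Leydig cell markers were high in every sample, with lowest sums of 1123 FPKM for 8 Sertoli genes and 705.8 FPKM for 5 Leydig genes, as the testis label requires. Single markers differed widely. The Sertoli gene Clu was at 882.2 FPKM or more, while Fshr was at 0.53 to 2.97 FPKM and the Leydig gene Cyp17a1 at 1.38 to 4.16 FPKM. The lowest Sertoli sum was in A10 replicate 3, which stood apart from both other A10 samples. The correlation of log2 values between samples of a group ranged from 0.929 (in A10) to 0.988 (in A50). In bulk tissue, fewer cells of a type and less RNA per cell cannot be told apart.

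The 8 genes are all protein coding, and 3 of the keratins lie on chromosome 15 (RefSeq annotation, GRCm38.p6; the submitters' notes name GRCm38.p5). Krt7 is at chr15:101412403-101427806 on the plus strand. Krt8, at chr15:101996711-102004342 on the minus strand, and Krt18, at chr15:102028216-102032026 on the plus strand, are transcribed away from each other from starts 23874 bases apart. Krt19 is at chr11:100140810-100145926 on the minus strand, and Cldn7 is on the same chromosome at chr11:69964779-69967886 on the plus strand. Epcam is at chr17:87635979-87651127 on the plus strand, Cdh1 at chr8:106603350-106670247 on the plus strand and Cldn4 at chr5:134945123-134946934 on the minus strand.

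RefSeq promoter windows were matched for 6 of the 8 genes. Krt19 and Cdh1 had no entry. The 250 bases before the start are shown for the 3 keratins and for Epcam and Cldn4, the more abundant of the adhesion genes. Capitals mark the E-box CACCTG or its reverse complement CAGGTG (the element through which Snail and Zeb repressors are known to act on Cdh1), the GC box GGGCGG or CCGCCC, and the AP-1 core TGANTCA.

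Krt7, chr15:101412153-101412402, plus strand: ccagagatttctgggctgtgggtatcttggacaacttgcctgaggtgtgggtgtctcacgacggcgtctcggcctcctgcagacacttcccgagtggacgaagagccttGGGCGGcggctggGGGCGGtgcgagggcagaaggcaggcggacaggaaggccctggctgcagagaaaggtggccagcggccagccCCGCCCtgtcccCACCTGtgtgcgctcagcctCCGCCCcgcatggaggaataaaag
Krt8, chr15:102004343-102004592, minus strand: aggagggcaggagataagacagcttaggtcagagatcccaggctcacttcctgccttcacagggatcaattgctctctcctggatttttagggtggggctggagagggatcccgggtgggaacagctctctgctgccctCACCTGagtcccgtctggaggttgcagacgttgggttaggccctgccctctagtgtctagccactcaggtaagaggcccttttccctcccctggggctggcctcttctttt
Krt18, chr15:102027966-102028215, plus strand: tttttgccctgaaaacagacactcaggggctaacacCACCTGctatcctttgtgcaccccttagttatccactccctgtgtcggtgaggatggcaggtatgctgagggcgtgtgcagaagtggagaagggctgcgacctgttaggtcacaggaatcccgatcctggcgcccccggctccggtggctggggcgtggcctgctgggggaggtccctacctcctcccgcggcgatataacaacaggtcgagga
Epcam, chr17:87635729-87635978, plus strand: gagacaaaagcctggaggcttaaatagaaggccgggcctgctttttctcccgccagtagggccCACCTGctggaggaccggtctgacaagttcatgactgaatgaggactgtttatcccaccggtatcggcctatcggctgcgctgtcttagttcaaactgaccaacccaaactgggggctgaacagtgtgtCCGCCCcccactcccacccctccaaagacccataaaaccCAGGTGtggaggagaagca
Cldn4, chr5:134946935-134947184, minus strand: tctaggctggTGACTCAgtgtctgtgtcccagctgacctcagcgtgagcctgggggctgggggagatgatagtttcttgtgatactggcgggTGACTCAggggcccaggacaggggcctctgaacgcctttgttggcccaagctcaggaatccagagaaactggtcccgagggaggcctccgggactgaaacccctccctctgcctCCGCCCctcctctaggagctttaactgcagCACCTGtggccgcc

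Each of the 6 genes had at least 1 E-box in a window of this length, while 17.2% of 32851 such RefSeq windows held one. In Krt7 the E-box lay 44 to 39 bases before the start, in Krt8 it lay 111 to 106 bases before and in Krt18 it lay 214 to 209 bases before. Epcam had E-boxes at 187 to 182 and at 19 to 14 bases before the start. Cldn4 had one E-box at 14 to 9 bases before the start and AP-1 cores at 240 to 234 and 158 to 152 bases before, and the AP-1 core was present in 6.75% of all windows. Krt7 held 4 GC boxes, a motif found in 32.7% of windows. Cldn7 had 2 windows, and its 2 E-boxes, at 97 to 92 and 57 to 52 bases, lay in the one whose start is further downstream. No window of these genes held TATAAA, which was found in 12.4% of all windows. The motifs were searched on both strands, and a match is a run of letters, not a shown binding site.

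Krt8 and Krt18 were the most abundant of the keratins and stood out in all 3 B0 samples. Krt8 was at 22.0, 58.9 and 20.7 FPKM in B0 replicates 1, 2 and 3. In A0 it was at 8.29, 3.59 and 2.29 FPKM, in A10 at 3.24, 3.85 and 5.41 FPKM, in A50 at 4.35, 4.50 and 4.44 FPKM, in BA10 at 2.73, 4.62 and 4.12 FPKM and in BA50 at 3.39, 3.54 and 3.70 FPKM. The 3 B0 samples were above the other 15, and the highest of those was A0 replicate 1. The lowest B0 value was 2.49-fold higher than that sample, and the mean of B0 (33.9 ± 21.7 FPKM, SD, n = 3) was 7.17-fold that of A0 (4.72 ± 3.16 FPKM, SD, n = 3).

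Its partner Krt18 was at 25.3, 69.2 and 29.6 FPKM in B0. The 3 values were 9.61, 3.61 and 2.98 FPKM in A0, 2.59, 4.04 and 3.81 FPKM in A10, and 5.22, 4.83 and 4.90 FPKM in A50. They were 2.55, 7.21 and 4.59 FPKM in BA10 and 4.14, 3.50 and 3.38 FPKM in BA50. B0 was again above all 15 other samples, with A0 replicate 1 the next. Below B0, the groups of neighbouring mean overlapped in order from A0 over A50, BA10 and BA50 to A10 for Krt18, and from A0 over A50, A10 and BA10 to BA50 for Krt8.

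The ratio of Krt8 to Krt18, the type II to the type I keratin of the pair, was 0.871, 0.851 and 0.699 in the 3 B0 samples. In the other 15 samples it ranged from 0.641 to 1.42 with a median of 0.932. The B0 ratios thus lay within the range of the samples with low levels, so both genes of the pair were higher in B0 by a like factor.

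Krt7 and Krt19 are keratins of ductal and other simple epithelia and were low outside B0. Krt7 was at 10.5, 25.3 and 6.88 FPKM in B0. It was at 1.11, 0.44 and 0.14 FPKM in A0, 0.47, 0.47 and 0.29 FPKM in A10, 0.95, 0.40 and 0.16 FPKM in A50, 0.10, 0.20 and 1.18 FPKM in BA10, and 0.65, 0.15 and 0.13 FPKM in BA50. The lowest B0 sample was 5.83-fold above the highest of the other 15 (BA10 replicate 3), the widest gap among the 4 keratins, and the B0 mean of 14.2 ± 9.74 FPKM (SD, n = 3) was 25.3-fold that of A0.

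Krt19 was at 10.2, 23.7 and 6.46 FPKM in B0. In the other groups it was at 2.66, 0.59 and 0.54 FPKM (A0), 0.81, 1.74 and 4.82 FPKM (A10), 1.68, 1.16 and 1.10 FPKM (A50), 0.65, 0.23 and 1.44 FPKM (BA10), and 0.49, 0.27 and 2.00 FPKM (BA50). Here the gap was the narrowest of the keratins, 1.34-fold between B0 replicate 3 and A10 replicate 3, the sample with the low Sertoli markers. The ratio of Krt7 to Krt19 was 1.03, 1.07 and 1.06 in B0. In the 2 other samples with at least 1 FPKM of both genes it was 0.417 (A0 replicate 1) and 0.819 (BA10 replicate 3).

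Among all 22657 genes, 1.46% had their 3 B0 values above the other 15 samples, which is what chose the keratins. On the log2(FPKM + 1) scale, B0 minus A0 was 3.14 for Krt7, 2.58 for Krt8, 2.73 for Krt18 and 2.62 for Krt19. The difference between BA10 and B0 ranged over the 4 keratins from -3.23 (Krt7) to -2.71 (Krt8), and that between BA50 and B0 from -3.37 (Krt7) to -2.77 (Krt8). Without busulfan, A10 minus A0 lay between -0.39 (Krt18) and 0.56 (Krt19), and A50 minus A0 between -0.04 (Krt7) and 0.15 (Krt19). BA10 minus A10 lay between -0.85 (Krt19) and 0.30 (Krt18), and BA50 minus A50 between -0.37 (Krt19) and -0.19 (Krt7). For Krt8 and Krt18 all BA50 samples lay below all A50 samples, as in 25.7% of the genes tested, but within the range of the A0 and A10 samples. B0 was the group that stood apart in all 4 keratins. B0 samples take part in 3 of these differences, which are not independent of one another.

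**Figure D1:**
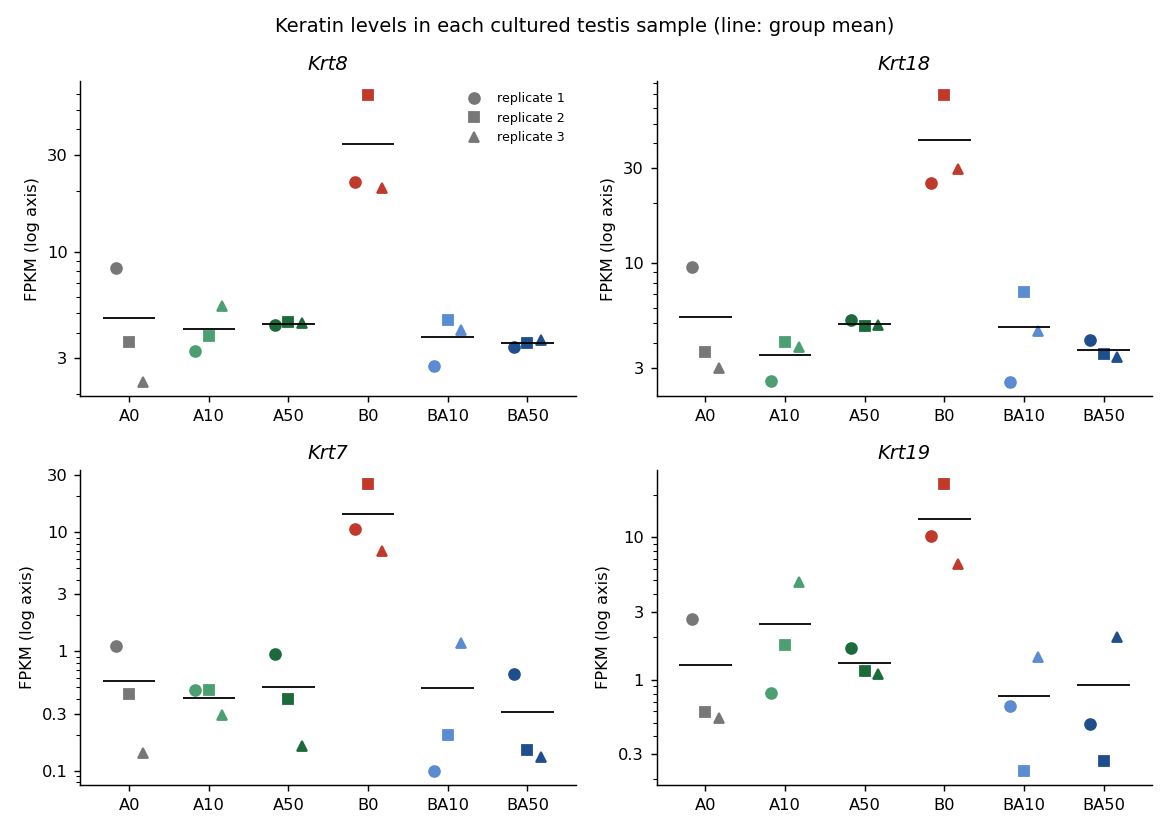
FPKM on a log axis of Krt8, Krt18, Krt7 and Krt19 in each of the 18 samples, with 1 symbol per replicate number and a line at the mean of each group. The 3 B0 samples lie above the other 15 in every panel, with B0 replicate 2 the highest, and A0 replicate 1 is the next highest sample for Krt8 and Krt18.

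Within B0, replicate 2 was the highest sample for all 8 genes. B0 replicate 2 was the highest of the B0 samples in 31.3% of all genes, and in 37% of the 330 genes whose B0 samples were above the other 15. In the other B0 samples, Krt8 was at 22.0 and 20.7 FPKM and Krt7 at 10.5 and 6.88 FPKM. These values lay above all samples of the other groups, which follows from how the keratins were chosen and is no check of it. Summed over the 4 keratins, B0 samples ranged from 63.6 to 177.1 FPKM, against 5.95 to 21.7 FPKM in A0 and 7.46 to 9.21 FPKM in BA50.

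The adhesion genes did not follow the keratins as a block. Cdh1, Cldn4 and Cldn7 were higher in B0 than in A0, while Epcam was not. Of the 4 genes, 3 passed the test as higher (limma on log2(FPKM + 1), Benjamini-Hochberg over all genes tested) and 0 as lower, while 1.47% of all genes tested were called higher and 12.3% lower (13.8% in all, and 24.9% at an unadjusted p under 0.05). The median log2 difference of the 4 genes was 1.06, beside -0.04 over all genes tested.

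Cdh1, the cadherin of epithelial adherens junctions, was at 2.04, 12.6 and 4.93 FPKM in B0. It was at 2.35, 0.61 and 0.82 FPKM in A0, 0.82, 1.27 and 2.09 FPKM in A10, 0.98, 1.65 and 1.78 FPKM in A50, 0.83, 1.98 and 0.97 FPKM in BA10, and 0.43, 0.68 and 0.88 FPKM in BA50. B0 replicate 1 lay below A0 replicate 1 and A10 replicate 3, so B0 overlapped both of those groups. All 3 BA10 and all 3 BA50 values lay below all 3 B0 values, as in 7.75% and 13.5% of the genes tested. The mean of B0 was 6.53 ± 5.47 FPKM (SD, n = 3) and that of A0 was 1.26 ± 0.950 FPKM (SD, n = 3), a log2 difference of 1.55 ± 0.42 (SE, limma, adjusted p = 0.0231).

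Cldn4 was one of the more abundant of the 8 genes in every group. It was at 32.0, 63.2 and 46.9 FPKM in B0, 25.7, 16.6 and 24.4 FPKM in A0, 26.8, 22.7 and 26.3 FPKM in A10, 27.6, 22.6 and 31.4 FPKM in A50, 37.0, 31.7 and 39.7 FPKM in BA10, and 22.0, 32.7 and 44.2 FPKM in BA50. All 3 B0 values lay above all 3 A0 values, as in 10.5% of the genes tested, and B0 overlapped BA10 and BA50. B0 minus A0 was 1.03 ± 0.25 on the log2 scale (SE, n = 3 each, limma, adjusted p = 0.0126).

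Cldn7 was the adhesion gene with the lowest levels in the AOS cultures after busulfan. It was at 2.89, 9.22 and 1.80 FPKM in B0 and at 1.87, 0.98 and 1.00 FPKM in A0. It was at 1.39, 1.23 and 1.33 FPKM in A10, 0.85, 0.87 and 1.53 FPKM in A50, 0.22, 0.24 and 0.63 FPKM in BA10, and 0.54, 0.54 and 0.62 FPKM in BA50. B0 replicate 3 lay below A0 replicate 1, so the groups overlapped. All BA50 samples lay below all A50 samples, as in 25.7% of the genes tested. B0 minus A0 was 1.10 ± 0.34 (log2, SE, limma, adjusted p = 0.041).

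Epcam was well expressed in every sample. It was at 11.3, 26.0 and 21.7 FPKM in B0, 24.9, 23.9 and 19.4 FPKM in A0, 21.9, 21.1 and 19.4 FPKM in A10, 24.7, 22.5 and 26.2 FPKM in A50, 10.98, 15.9 and 16.5 FPKM in BA10, and 11.6, 21.4 and 16.9 FPKM in BA50. Its order of group means was A50, A0, A10, B0, BA50 and BA10, and each group overlapped the next. B0 minus A0 was -0.27 ± 0.25 (log2, SE, limma, adjusted p = 0.602). Germ cell markers were lower in B0 than in A0 for 4 of 5 genes (sums of 83.9 to 142.6 FPKM against 385.2 to 440.6 FPKM), and the part of germ cells in the levels of Epcam and Cdh1 was not tested.

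The calls of B0 against A0 were lost when single samples were left out. Without B0 replicate 2, the log2 differences were 0.99 for Cdh1 (adjusted p = 0.0954, limma), 0.80 for Cldn4 (0.0633) and 0.55 for Cldn7 (0.109), so that 0 of the 4 genes were called, and the differences of Cdh1 and Cldn7 shrank by more than 1.5 times. The count was also 0 without A0 replicate 2, with adjusted p-values of 0.088 for Cdh1, 0.0605 for Cldn4 and 0.116 for Cldn7 (limma), and it was 1 (Cldn4) without A0 replicate 3. A fit of B0 and A0 alone called 0, with adjusted p-values of 0.137, 0.0636 and 0.195 (limma). Cldn7 also missed the threshold with the replicate block, at 0.0629.

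**Figure D2:**
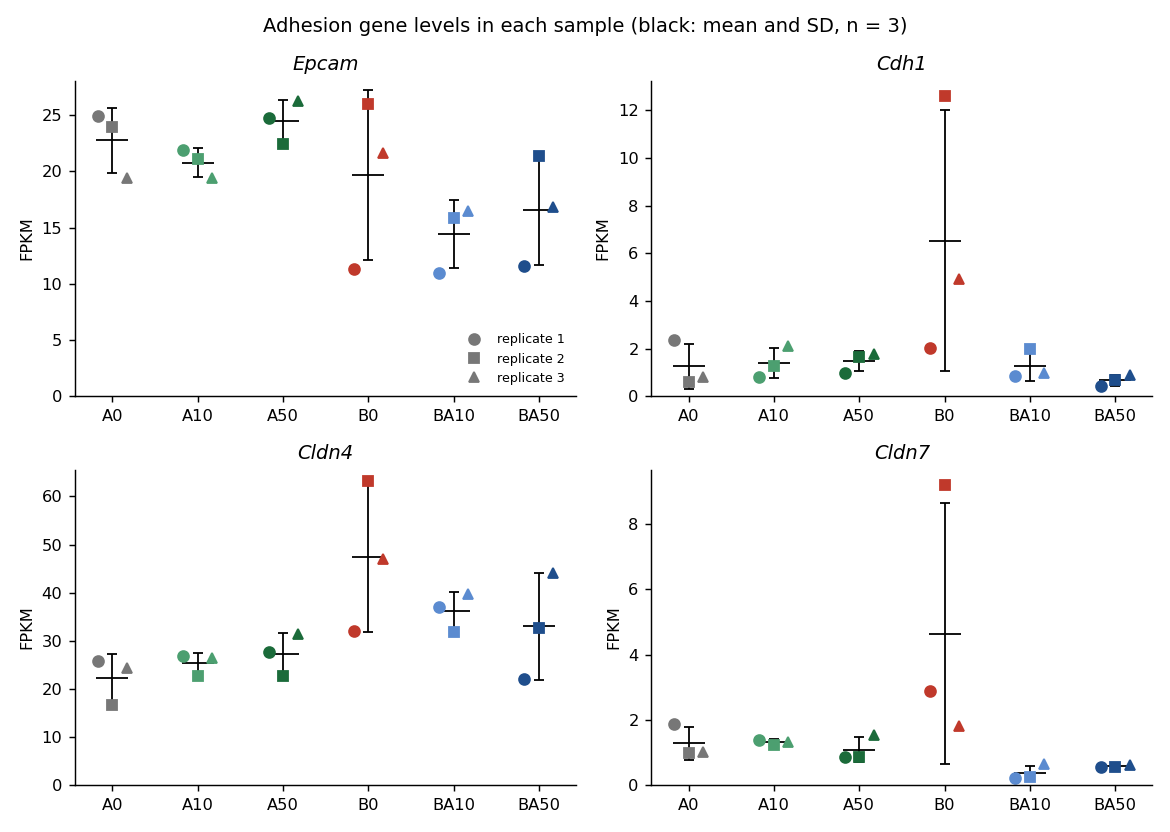
FPKM of Epcam, Cdh1, Cldn4 and Cldn7 in each of the 18 samples, with the mean and SD of each group of 3 in black. Epcam lies between 10.98 and 26.22 FPKM with no group apart from its neighbours, while B0 replicate 2 is the highest sample for Cdh1, Cldn4 and Cldn7.

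No adhesion gene was called in the tests of AOS, which does not show an absence of change. BA10 against B0 called 0 of 4 genes, with 0.0253% of all genes tested called and 5.05% at an unadjusted p under 0.05. At an unadjusted p under 0.05 were 2 of the 4, Cdh1 and Cldn7. The log2 differences were -1.50 for Cdh1, -0.34 for Cldn4, -1.83 for Cldn7 and -0.36 for Epcam, with adjusted p-values (limma) of 0.749, 0.749, 0.104 and 0.749. The Cldn7 call turned when B0 replicate 3 was left out (log2 difference -2.22, adjusted p = 0.0205, limma). BA50 against B0 called 0 of 4, with 0.095% of all genes tested called (0.00633% higher and 0.0887% lower) and 24.3% at an unadjusted p under 0.05, again with Cdh1 and Cldn7 as 2 of the 4. The differences were -1.92 for Cdh1 (adjusted p = 0.0994, limma), -0.51 for Cldn4 (0.228), -1.62 for Cldn7 (0.0806) and -0.20 for Epcam (0.642). Here the outcome turned on single samples as well. Cdh1 passed without B0 replicate 1 (0.0279), Cldn7 passed without B0 replicate 3 (0.0362), and both passed without BA50 replicate 1 (0.0462 and 0.0418, limma). All 3 BA10 and all 3 BA50 values of Cldn7 were below all 3 B0 values, as were 7.75% and 13.5% of the genes tested.

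Without busulfan the adhesion genes stayed close to A0. A10 against A0 and A50 against A0 each called 0 of the 4 genes and 0% of all genes (limma), while 15.2% and 15.6% of genes had an unadjusted p under 0.05 and 0 of the 4 did. The log2 differences of the 4 genes ranged from -0.12 (Epcam) to 0.20 (Cldn4) at 10 μg/mL and from -0.13 (Cldn7) to 0.29 (Cldn4) at 50 μg/mL, with SEs from 0.25 to 0.42. The test of whether the AOS difference was unlike after busulfan also called 0 of 4 genes and 0% of all genes at both concentrations, with 3.97% and 6.28% of genes, and 2 and 3 of the 4, at an unadjusted p under 0.05. For Cdh1 that difference of differences was -1.63 ± 0.60 at 10 μg/mL and -2.11 ± 0.60 at 50 μg/mL (SE, adjusted p = 0.91 and 0.597, limma), and for Cldn7 it was -1.87 ± 0.47 and -1.49 ± 0.47 (adjusted p = 0.91 and 0.63, limma).

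Busulfan was also compared at equal AOS concentration, in contrasts added after the data had been seen. BA10 against A10 and BA50 against A50 called 0 of the 4 adhesion genes, while 18.9% and 19.9% of all genes tested were called. At an unadjusted p under 0.05 were 32.9% and 32.3% of genes, with 1 of the 4 members in each comparison (Cldn7 in BA10, Epcam in BA50). Epcam was lower by 0.51 ± 0.25 in BA10 and by 0.57 ± 0.25 in BA50 on the log2 scale, neither past the threshold (log2 differences of -0.51 and -0.57, SE, adjusted p = 0.176 and 0.136, limma). Cldn7 was at -0.78 ± 0.34 in BA10 minus A10 (adjusted p = 0.121, limma), and the lower BA10 values passed in a fit of these groups alone (0.0384) and with a pseudocount of 0.1 (0.0213). Cldn4 differed by 0.50 (BA10 minus A10) and 0.23 (BA50 minus A50), and Cdh1 by -0.08 and -0.56.

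**Figure D3:**
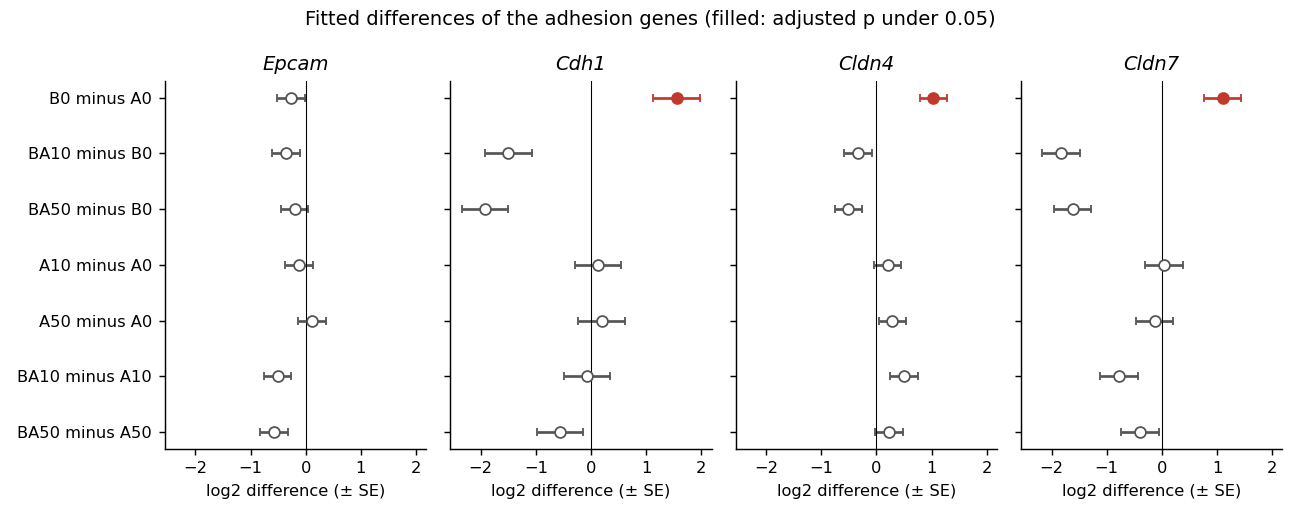
Fitted log2 differences of Epcam, Cdh1, Cldn4 and Cldn7 with their standard errors in 7 comparisons of groups, each of 3 samples, filled where the adjusted p was under 0.05. Filled points appear only for Cdh1, Cldn4 and Cldn7 in B0 minus A0, and Cdh1 and Cldn7 have their lowest values in BA10 minus B0 and BA50 minus B0.

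The adhesion genes were set against Krt8 in the same sample to compare their proportions. Epcam to Krt8 was 0.513, 0.442 and 1.05 in the B0 samples and 3.00 to 8.48 in the other 15. Krt8 was chosen for its high B0 values and Epcam was not higher in B0 than in A0, so this gap follows from the choice. Cdh1 to Krt8 was 0.0926 to 0.239 in B0 and 0.284 to 0.429 in the 6 other samples with at least 1 FPKM of both. Cldn7 to Krt8 was 0.0872 to 0.157 in B0 and 0.226 to 0.437 in 6 other samples. For both genes the B0 ratios lay below those of the other samples, and Krt8 was itself chosen for its B0 values. Over the 18 samples, the Pearson correlation with the mean log2 level of the 4 keratins was 0.883 for Cdh1, 0.875 for Cldn7, 0.608 for Cldn4 and 0.112 for Epcam. These are descriptions, because the 3 B0 samples share their group and lie far from the rest.

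The genes most like the keratin mean over the 18 samples, by the same correlation, were Fxyd3, Hoxa9, Plet1, Emx2, St14, Krt14, Crisp1, Sfn, Itgb4 and Cdo1, from 0.948 down to 0.893. Fxyd3, a regulator of the sodium pump in epithelia, was at 3.17, 12.5 and 1.39 FPKM in B0 and at most 0.63 FPKM elsewhere. Plet1, a surface protein of epithelial progenitors, was at 3.70, 10.6 and 5.32 FPKM in B0 and at most 3.12 FPKM elsewhere (A0 replicate 1). Sfn, the 14-3-3 protein of stratified epithelia, was at 3.47, 12.0 and 2.45 FPKM in B0 and at most 1.35 FPKM elsewhere. Hoxa9 and Emx2, transcription factors of the developing urogenital tract, moved in a narrower range, from 1.08 to 1.65 FPKM and from 1.80 to 2.30 FPKM in B0, above at most 0.85 and 1.67 FPKM in the other samples. These genes were picked for their likeness to a mean that peaks in B0 replicate 2, so their high values in that sample follow from the choice. Fxyd3, Hoxa9, St14, Krt14, Crisp1 and Itgb4 reached 1 FPKM in 0 samples outside B0. They passed the filter only through B0, so they could be ranked only by being higher in B0, and their likeness is not read as a result.

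Other epithelial genes were read from 5 lists of 90 genes in all, covering further keratins, desmosomes, junctions and polarity, epithelial regulators and surface proteins. In 14 of the 90 genes the 3 B0 samples were above the other 15, beside 1.46% of all genes. B0 replicate 2 was the highest B0 sample in all 14, beside 37% of all genes with B0 above the other 15. These 14 genes include the basal cell keratins Krt5 and Krt14, which pair with each other in stratified epithelium. Krt5 was at 0.90, 13.7 and 1.22 FPKM in B0 and at most 0.09 FPKM elsewhere. Krt14 was at 1.43, 14.6 and 1.20 FPKM in B0 and at most 0.24 FPKM elsewhere. Both were above the other 15 samples in each B0 sample and by far the highest in B0 replicate 2. Krt17 and Krt20 were also above all other samples but reached at most 1.94 and 2.00 FPKM.

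Among junction and surface genes with B0 above the other 15 were Cldn1, Cldn8, Cd24a, Cdcp1, Itgb6 and Lad1. Some were low even in B0, with Cldn8 at 0.04, 0.65 and 0.04 FPKM and Itgb6 at 0.22, 1.10 and 0.18 FPKM. Of the 14 genes, only Pkp2 and Cd24a reached 1 FPKM in any sample outside B0. For Pkp2 the lowest B0 value was 1.03-fold the highest value elsewhere. Cd24a was at 11.9, 54.5 and 14.0 FPKM in B0 and at most 10.1 FPKM elsewhere. The tight junction gene Cldn1 was at 0.89, 5.66 and 0.87 FPKM, and at most 0.30 FPKM elsewhere. Not all keratins behaved in this way: Krt23 was at 14.5, 13.1 and 10.2 FPKM in B0, yet at 30.1, 3.15 and 14.9 FPKM in BA10, overlapping it. The desmosome gene Dsp, whose protein ties keratin filaments to the junction, was at 0.49, 2.39 and 1.07 FPKM in B0 and overlapped A0, where it was at 0.72, 0.28 and 0.18 FPKM.

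Of the 90 genes, 43 were tested. In B0 against A0, 5 were called higher and 4 lower (limma), but 3 of the 5 (Krt14, Itgb4 and St14) passed the filter on low values only through B0, so that they had to differ and their calls are not read as results. With the filter set on the 15 samples outside B0, 2 of 40 genes were called higher and 4 lower, beside 1.36% higher and 12.5% lower of all genes. The median log2 difference of the 43 was 0.03, beside -0.04 over all genes. Higher in both fits were the epithelial transcription factor gene Elf3 (0.78) and the desmosome gene Pkp2 (0.38). The fitted differences of the genes that passed through B0 were 2.01 for Krt14, 0.97 for Itgb4 and 0.89 for the surface protease gene St14. Lower were the splicing regulator gene Esrp1 (-1.08), the transcription factor genes Ovol1 (-0.97) and Grhl1 (-0.69), and the mucin gene Muc1 (-0.64). Among the genes called in both fits, adjusted p-values in the fit of 43 genes ran from 0.00153 (Ovol1) to 0.0473 (Muc1). Of the 7 regulators tested, Elf3 was called higher in B0 than in A0, while Esrp1, Ovol1 and Grhl1 were called lower. The levels of Esrp1, Ovol1 and Grhl1 were also low in BA10 and BA50, where the keratins were low. Ovol1 was at 0.51, 1.18 and 0.61 FPKM in B0, 0.77, 0.96 and 1.16 FPKM in BA10, and 0.74, 1.08 and 1.15 FPKM in BA50.

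BA10 against B0 called 0 of the 43 genes, beside 0.0253% of all genes. At an unadjusted p under 0.05 were 14 of them, beside 5.05% of all genes. These 14 include Krt14, Itgb4 and St14, which passed the filter only through B0 and so had to be lower outside it. The count is therefore not read as a result. BA50 against B0 called 1, Elf3 (log2 difference -1.26 ± 0.21, SE, adjusted p = 0.0427, limma), beside 0.0887% of all genes called lower. Elf3 was at 1.99, 4.08 and 2.69 FPKM in B0 and at 0.41, 0.70 and 0.70 FPKM in BA50, with no overlap, as in 13.5% of genes. With the replicate block fitted over all groups its adjusted p was 0.0955, and with the block within these groups only it was 0.0292 (limma). Without B0 replicate 2 it was 0.133, without B0 replicate 3 it was 0.125, without BA50 replicate 2 it was 0.196 and without BA50 replicate 3 it was 0.0816. A10 and A50 against A0 called 0 of the 43 genes and 0% of all genes. At an unadjusted p under 0.05 were 10 and 5 of the 43, beside 15.2% and 15.6% of all genes.

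At equal AOS concentration, 2 of the 43 list genes were called higher and 7 lower in BA10 than in A10, beside 3.74% and 15.2% of all genes. In BA50 against A50, 1 of the 43 was higher and 9 lower, beside 3.7% and 16.2% of all genes. These counts lie near the shares over all genes and are not read as a result about the lists. Esrp1, Ovol1, Grhl1, Muc1, Spint1 and Marveld2 were lower in both comparisons. Esrp1 fell by 1.31 and 1.45 on the log2 scale (adjusted p = 0.00044 and 0.000141, limma) and Ovol1 fell by 1.17 and 1.25 (0.000265 and 0.000116). Junction and polarity genes went both ways: F11r (0.85) was called higher in BA10 than in A10 and Cldn3 (0.89) in BA50 than in A50, while Cdh3 (-0.73) and Pals1 (-0.47) were called lower in BA50 than in A50. The F11r difference leaned on A10 replicate 3, at 28.44 FPKM beside 69.06 and 65.98 FPKM in replicates 1 and 2. It ran from 0.44 to 1.07 with a sample left out. The protease inhibitor gene Spint2 (-0.76) was called lower in BA50 than in A50, and the transcription factor gene Ovol2 (-0.86) was called lower in BA10 than in A10. Ovol2 was likewise at 23.37 FPKM in A10 replicate 3 beside 10.75 and 11.87 FPKM in replicates 1 and 2. With a sample left out its difference ran from -1.06 to -0.53. Esrp1 was at 0.02 to 0.08 FPKM in the 6 samples of BA10 and BA50 and at 0.28, 1.52 and 0.21 FPKM in B0. The catenin genes Ctnnb1 (mean 149.3 FPKM over all samples) and Jup (mean 8.89 FPKM), the most abundant of the junction and the desmosome list, differed by 0.18 and 0.15 between B0 and A0, neither past the threshold (adjusted p = 0.561 and 0.674, limma). Vim, the filament gene of Sertoli and mesenchymal cells, was at 473.1 to 793.3 FPKM over all samples, and B0 minus A0 was 0.28 (adjusted p = 0.157, limma).

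**Figure D4:**
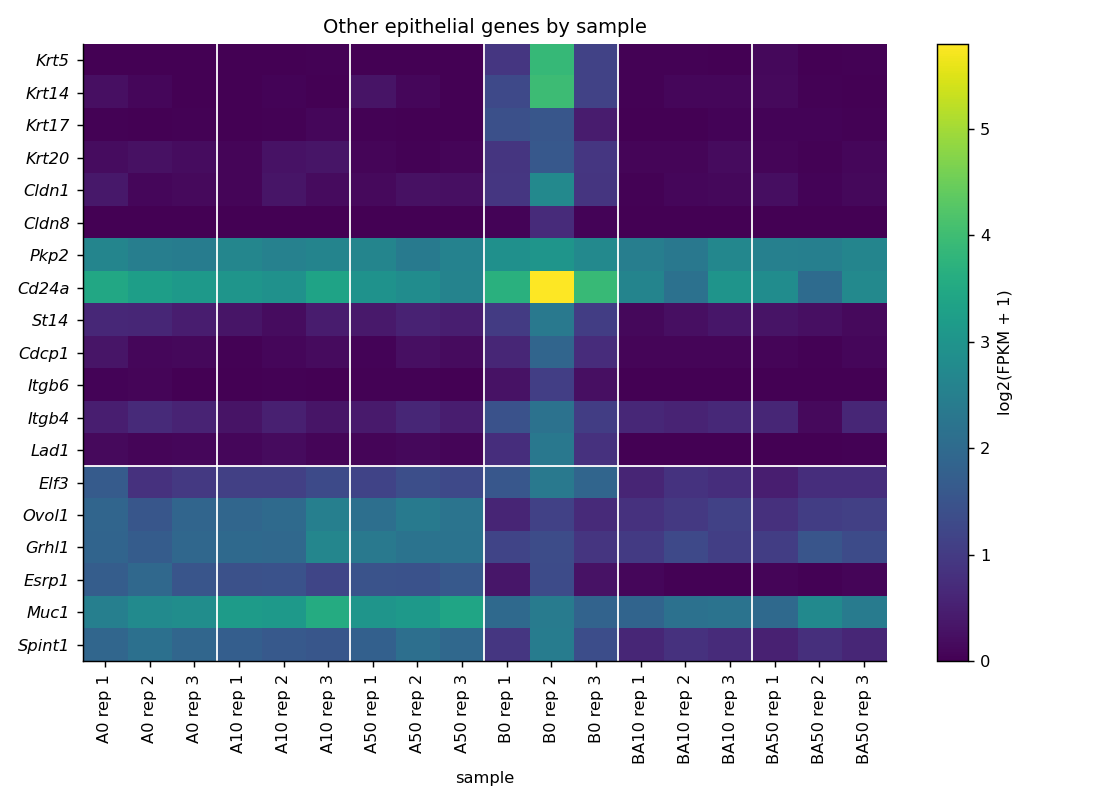
log2(FPKM + 1) in each of the 18 samples of list genes whose 3 B0 samples were above the other 15 (top) and of 6 other named epithelial genes (below the line). The top genes peak in B0 replicate 2, at 14.57 FPKM for Krt14 and 54.47 FPKM for Cd24a, while Ovol1, Grhl1 and Esrp1 are highest in A0, A10 and A50.

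Markers of tissues next to the testis were summed in each sample. Of a list of 12 genes of the efferent ducts and epididymis, 11 were matched. Their sum was 5.68 to 46.4 FPKM in B0 and 2.58 to 6.61 FPKM elsewhere, highest in B0 replicate 2. In that sample most of the sum came from Crisp1, a secreted epididymal protein, at 1.83, 37.4 and 2.80 FPKM in B0 and at most 0.24 FPKM elsewhere. Cdh16, a cadherin of duct epithelium, was at 0.23, 1.56 and 0.27 FPKM in B0 and at most 0.19 FPKM elsewhere. The epididymal genes Lcn5, Lcn9 and Adam7 were at 0 or near it throughout, with at most 0.06 FPKM for Lcn5 and Lcn9 and 0.25 FPKM for Adam7 (B0 replicate 2). Rnase10, also on the list, went the other way, at 0.15, 0.52 and 0.16 FPKM in B0 and at most 3.27 FPKM elsewhere (A50 replicate 3). In A0 it was at 0.96, 0.22 and 1.38 FPKM. It was not called in B0 against A0 (-0.50), and was called lower in BA10 than in A10 and in BA50 than in A50, beside 15.2% and 16.2% of all genes. Of the 11 genes, 2 had B0 above all other samples, beside 1.46% of all genes. Of the 4 tested, 2 (Crisp1 and Pax8) passed the filter only through B0, and the lower adjusted p of the other 2 was 0.214 in B0 against A0 (limma, filter on the 15 samples outside B0).

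The 7 mesothelium genes, from the covering layer of the testis that also carries simple keratins, summed to 5.09 to 14.2 FPKM in B0 and 3.19 to 9.55 FPKM in A0. They summed to 2.68 to 4.53 FPKM in A10, 2.74 to 6.44 FPKM in A50, 1.19 to 5.04 FPKM in BA10 and 1.30 to 3.75 FPKM in BA50. The highest sum outside B0 was in A0 replicate 1, which was also the next sample after B0 for Krt8 and Krt18. The order of the mesothelium sums within B0 was unlike that of the keratins, with replicate 1 the highest and replicate 2 the lowest. Msln, the defining marker, was at 6.56, 2.44 and 3.65 FPKM in B0 and 3.19, 3.05 and 0.72 FPKM in A0. Of the 3 mesothelium genes tested in B0 against A0, Bnc1 was called lower (-0.91), beside 12.3% of all genes. Upk1b (0.98) and Msln (0.68) were higher and not called (adjusted p = 0.186 and 0.375, limma). Upk1b was at 4.76, 1.10 and 2.45 FPKM in B0. Bnc1 was also low in BA10, at 0.01, 0.10 and 0.23 FPKM. The 8 fat cell genes summed to 206.9 to 888.5 FPKM in B0 and 42.5 to 138.1 FPKM in the other 15 samples, and 4 of the 4 that passed the filter on the 15 samples outside B0 (Adipoq, Cfd, Fabp4 and Retn) were called higher in B0 than in A0 (limma), beside 1.36% of all genes. Another 3 (Plin1, Cidec and Car3) passed only through B0. The fat cell genes were highest in B0 replicate 1. The part of duct epithelium, mesothelium or fat tissue in the keratin and adhesion values was not tested.

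**Figure D5:**
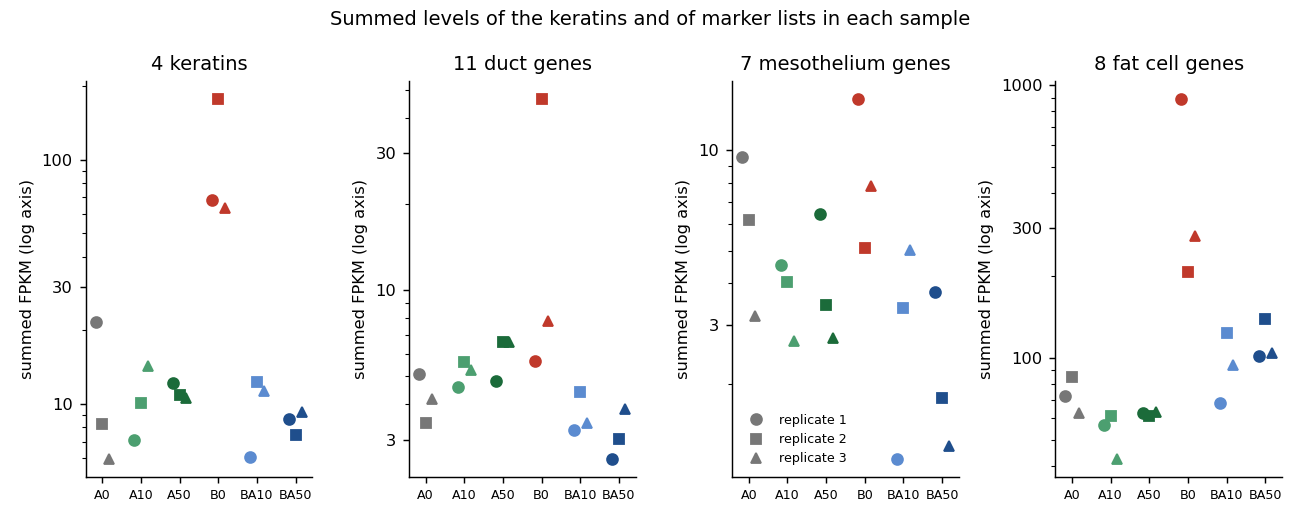
Summed FPKM on a log axis of the 4 keratins and of 3 marker lists in each of the 18 samples, with 1 symbol per replicate number. The keratins and the duct genes are highest in B0 replicate 2, at 177.1 and 46.44 FPKM, while the mesothelium and fat cell genes are highest in B0 replicate 1, at 14.24 and 888.5 FPKM.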

How the data were processed

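RNA of cultured testes was measured by RNA-seq in 18 samples, 3 in each of 6 groups, and groups were taken from the sample titles. The authors deposited 1 table of FPKM values to 2 decimals, with 22657 genes, of which 20811 had an NCBI gene number and 20656 a symbol. The submitters' processing notes name HISAT, Bowtie2, RSEM and GRCm38.p5, while the paper's methods describe SOAPaligner and RPKM, so the aligner behind the table is uncertain. The column sums ranged from 463970 to 511274. Whole reads could not be worked back: 19.1% of 11130 ratios in 911 low genes lay within 0.1 of a whole number, beside 20% by chance. The depth is therefore unknown and no detection limits are given. No 2 samples were identical.

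Values were tested with limma 3.58.1 (lmFit, contrasts, eBayes with trend) in R 4.3.3 on log2(FPKM + 1), with all 18 samples in 1 fit (12 residual and 2.56 prior degrees of freedom), 15790 genes that reached 1 FPKM in 3 or more samples, and Benjamini-Hochberg adjustment over all of them. A log2 difference on this scale understates the change of low genes. Genes with an adjusted p under 0.05 were called. Exact permutation tests were not used, since 3 samples against 3 cannot go below p = 0.1. The contrasts of BA10 with A10 and BA50 with A50, the filter on the 15 samples outside B0 and the block within B0 and BA50 were added after seeing the data. Other alternatives were the replicate block, pseudocount, filters, quantile normalization, eBayes settings, a fit of only the groups compared, the study's limits (FDR of 0.001 and log2 of 1) and leaving out each sample. The fit was tested on simulated data.

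The genes, lists and tests were chosen with earlier results of these data known. Named genes were the 8 members, up to 5 called genes per list and its most abundant gene, and the 10 genes closest to the keratin mean in Pearson correlation. Genes named outside this rule (Krt5, Krt17, Krt20, Dsp, Cd24a, Cldn1, Cldn8, Cdcp1, Itgb6, Lad1, Cdh16, Lcn5, Lcn9, Adam7, Rnase10, Pax8, Upk1b, Fshr, Cyp17a1, Plin1, Cidec and Car3) were chosen after their values were seen. Some list genes counted in the text are not reported here by name. Same-numbered samples deviated together in B0 and BA50 (correlations of 0.56, 0.42 and 0.14, each over 0.1) and in none of the other 6 pairs of groups compared for all 3 numbers. Promoter windows came from RefSeq GRCm38.p6. Python 3.11.15, pandas 2.3.3, NumPy 2.4.6 and matplotlib 3.10.9 were used.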

Additional observations from a re-analysis of the deposited data

How the results depend on the processing

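The count of adhesion genes called in B0 against A0 was 3, and 1 of the 2 genes left with a filter at a mean of 5 FPKM, 0 in a fit of only these groups, 0 at the study's limits, and 0 to 3 when 1 sample was left out. It ranged from 0 to 1 in BA10 against B0 and from 0 to 2 in BA50 against B0 with a sample left out, and was 1 in BA10 against A10 with a pseudocount of 0.1 or with only these groups fitted. In B0 against A0, 9 epithelial list genes were called, 3 of which passed the filter only through B0. The count of list genes called became 17 with no filter, 1 with the strict filter, 3 with only these groups and 0 at the study's limits, and 3 to 7 with a sample left out. In BA10 against B0 the count was 1 with no filter. In BA50 against B0 the 1 call became 0 with the replicate block, a pseudocount of 0.1, the strict filter, quantile normalization, the filter on the 15 samples outside B0, only these groups or the study's limits, 3 with no filter, and 0 to 7 with a sample left out. In BA10 against A10 the 9 calls became 4 with the strict filter, 5 with only these groups, 4 at the study's limits and 5 to 11 with a sample left out. In BA50 against A50 the 10 calls became 4 with the strict filter, 2 at the study's limits and 7 to 9 with a sample left out. The mean log2 difference of the keratins between BA50 and B0 was -3.01, and -3.86 with a pseudocount of 0.1. With a sample left out, the keratin mean was 2.30 to 3.14 for B0 minus A0, -3.21 to -2.44 for BA10 minus B0 and -3.30 to -2.54 for BA50 minus B0.

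Signs turned for small differences. Cdh1 in BA10 minus A10 was 0.01 with quantile normalization. With a sample left out, Epcam ran from -0.50 to 0.07 in B0 minus A0 and from -0.53 to 0.04 in BA50 minus B0, Cdh1 from -0.08 to 0.45 in A10 minus A0, from -0.02 to 0.51 in A50 minus A0 and from -0.30 to 0.12 in BA10 minus A10, Cldn4 from -0.01 to 0.48 in BA50 minus A50, and Cldn7 from -0.05 to 0.22 in A10 minus A0 and from -0.27 to 0.05 in A50 minus A0.

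With the replicate block, 2 adhesion genes were called in B0 against A0, and the pairing changed no count of adhesion calls by over 1.5 times in the other comparisons. Over all genes, B0 against A0 gave 232 higher and 1941 lower, and 510 higher and 1487 lower with quantile normalization. BA50 against B0 gave 1 higher and 14 lower, 0 with only these groups or without BA50 replicate 2, and 618 higher and 503 lower without BA50 replicate 1. BA10 against A10 gave 591 higher and 2396 lower, and 35 and 1082 with only these groups. The causes of these shifts were not tested. Krt14, Itgb4, St14 and Crisp1 could not be tested without a B0 sample, since they passed the filter through B0 only.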
